A study of Mus musculus with 24 samples.

Results

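The hippocampus is built from subfields whose principal neurons carry their own marker genes, and 9 such genes were followed here: Prox1, Dsp, C1ql2 and Tdo2 for the granule cells of the dentate gyrus, Wfs1, Fibcd1, Mpped1 and Spink8 for the pyramidal cells of CA1, and Iyd for CA3. The genes are known subfield markers, and every probe assigned to them by its transcript accession was kept. This gave 10 of the 56605 probes on the array, and 9 of the 23787 named genes, with Prox1 covered by 2 probes. The probes of the other genes were A_51_P101460 (Dsp), A_52_P483959 (C1ql2), A_66_P119621 (Tdo2), A_51_P216593 (Wfs1), A_51_P271417 (Fibcd1), A_55_P2046783 (Mpped1), A_51_P458638 (Spink8) and A_51_P411200 (Iyd). The levels came from 24 two-colour microarrays that compared the whole hippocampus of 48 male Swiss-Webster mice, 12 weeks old and housed singly. The corticosterone-treated animals drank corticosterone (100 µg/ml, dissolved with 0.45% hydroxypropyl-β-cyclodextrin) through the 12 h of the dark phase, when mice are active, and the control animals drank the cyclodextrin vehicle. Mice were killed in the first, the fifth or the ninth hour of the light phase, when mice rest, with 8 corticosterone-treated and 8 control animals at each time point. Controls were brothers of the treated mice and each group drew on several litters, but the litter of an animal is not given in the labels. Litter could therefore not be entered in any test. The fit allowed for a correlation between the 2 animals of an array, and animals of different arrays were treated as independent. Each array carried 1 control animal labelled with Cy3 and 1 corticosterone-treated animal labelled with Cy5. The dyes were never exchanged, so that treatment and dye cannot be told apart in a direct comparison, whereas a constant dye effect of a probe cancels when hours are compared within a dye or when effects are compared between hours.

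Information enters the hippocampus through the dentate gyrus, whose granule cells send mossy fibres to CA3, and CA3 pyramidal cells in turn project to CA1. Glucocorticoids reach these neurons through the mineralocorticoid and glucocorticoid receptors, ligand-gated transcription factors, and granule and CA1 cells are rich in the glucocorticoid receptor whereas CA3 cells carry less of it. Among the dentate genes, Prox1 encodes a homeodomain transcription factor that maintains granule cell identity, Dsp encodes desmoplakin, a plaque protein that anchors intermediate filaments to cell junctions, C1ql2 encodes a secreted C1q-like protein of mossy fibre synapses, and Tdo2 encodes tryptophan 2,3-dioxygenase, the first enzyme of the kynurenine pathway and a gene that glucocorticoids induce in liver. Of the CA1 genes, Wfs1 encodes wolframin, a membrane protein of the endoplasmic reticulum, Fibcd1 a membrane receptor with a fibrinogen-like domain, Mpped1 a protein with a metallophosphoesterase domain, and Spink8 a Kazal-type serine peptidase inhibitor. Iyd encodes iodotyrosine deiodinase.

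The 9 genes lie on 8 chromosomes. In the GRCm38.p6 annotation, Prox1 spans chr1:190118035-190170827, C1ql2 chr1:120340582-120343174, Fibcd1 chr2:31813290-31846964, Tdo2 chr3:81958412-81975728, Wfs1 chr5:36966104-36988982, Spink8 chr9:109812203-109826628, Iyd chr10:3540274-3554880, Dsp chr13:38151294-38198577 and Mpped1 chr15:83779472-83858487. RefSeq promoter entries (GRCm38.p6, 250 bases before to 50 bases after the start site) were found for 8 of the 9 genes, 10 entries in all, without one for Spink8. The bases before the start site are given here for the 2 dentate genes whose levels changed, Dsp and C1ql2, and for Tdo2, the dentate gene known for its glucocorticoid induction in liver. All are written 5′ to 3′ on the strand of the gene, and capitals mark matches of a TATA box (TATAAA) or a GC box (GGGCGG) on either strand.
Dsp, chr13:38151044-38151293, plus strand: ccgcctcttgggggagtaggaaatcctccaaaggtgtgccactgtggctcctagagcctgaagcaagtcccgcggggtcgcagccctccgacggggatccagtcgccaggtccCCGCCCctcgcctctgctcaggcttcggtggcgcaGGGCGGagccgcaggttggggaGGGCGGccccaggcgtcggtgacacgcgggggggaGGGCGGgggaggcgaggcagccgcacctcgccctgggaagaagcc
C1ql2, chr1:120340332-120340581, plus strand: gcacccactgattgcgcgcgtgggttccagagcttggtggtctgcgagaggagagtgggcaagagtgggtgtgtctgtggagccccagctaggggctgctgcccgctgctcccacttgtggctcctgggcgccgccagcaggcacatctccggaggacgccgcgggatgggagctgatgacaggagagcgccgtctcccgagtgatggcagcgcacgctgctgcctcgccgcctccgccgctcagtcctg
Tdo2, chr3:81975729-81975978, minus strand: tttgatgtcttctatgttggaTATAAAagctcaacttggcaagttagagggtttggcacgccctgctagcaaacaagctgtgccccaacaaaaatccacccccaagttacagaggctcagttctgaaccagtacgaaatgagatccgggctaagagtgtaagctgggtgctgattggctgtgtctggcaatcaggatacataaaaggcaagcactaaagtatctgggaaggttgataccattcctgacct
The Dsp stretch holds 4 GC boxes and no TATA box, the C1ql2 stretch neither, and the Tdo2 stretch a TATA box that begins at position −229 from the start site. GC content over the whole 300-base entry was 73% for Dsp, 67.3% for C1ql2 and 47.7% for Tdo2, against a median of 52.7% over all 32851 entries. The receptor motif AGAACA, read as TGTTCT on the other strand, one arm of the palindromic glucocorticoid response element, occurred in 0 of the 10 entries of the members and in 19% of all entries. A pair of such motifs facing each other across a gap of 3 bases was present in 0.00913% of all entries. The E-box CACGTG, the motif of the circadian clock, also occurred in 0 of the 10 entries, against 7.15% of all. TATAAA or TTTATA was found in 3 entries, those of Prox1, Tdo2 and Iyd, and in 13.6% of all. GGGCGG or CCGCCC was found in 7 entries and in 35.7% of all. These matches describe the letters in this window alone.

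All 9 probes of the dentate and CA1 genes were well above background in 48 of 48 channels. The 8 genes were thus expressed in this tissue, although RNA of the whole hippocampus cannot show in which subfield. Iyd, in contrast, was well above background in 0 of 48 channels, with normalised intensities of 8.85 to 28.1 across all animals. No fold change is therefore given for Iyd, and CA3 has no measurable gene among the 9. Of 7 further CA3 genes that were also examined, 6 were well above background in every channel, and Cdh24 in 5 of 48. Median channel intensity before normalisation ranged from 82 to 96 for Cy3 and from 120.5 to 160.5 for Cy5. The share of all spots, control spots included, that were well above background ranged from 57.9 to 64.2% and from 61.0 to 70.4%. One array of the fifth hour, array 7 of that hour on slide 3, had the most outlier spots, 506, against 255 to 449 on the others. Results that rest on it are given with and without it, except correlations over array means and log ratios, which include it. None of the spots of the 10 probes was an outlier or saturated.

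The first question was which subfield markers differed between corticosterone-treated and control animals. The CA1 gene Spink8 was higher at all 3 hours, by 52.6%, 41.6% and 29.2%, and was the most strongly altered of the 9 genes at each hour. The dentate gene Dsp was higher by 25.8% during the first hour, and the dentate gene C1ql2 by 22.0% during the ninth. Prox1, Tdo2, Wfs1, Fibcd1 and Mpped1 did not pass the test at any hour. In total, 2, 1 and 2 of the 10 probes displayed significant differences (limma, adjusted p under 0.05) in the first, the fifth and the ninth hour, all of them higher in corticosterone-treated mice. Over the whole array, 17.5%, 18.2% and 13.9% of probes displayed significant differences at these hours, so that the share among the subfield markers was near the background. The median log2 fold change of the 9 measurable probes was 0.04, −0.02 and −0.03, against 0.00 at each hour over all probes. As the tissue was taken whole, fewer cells of a type and less RNA per cell cannot be told apart.

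Spink8 displayed a clear gap between the groups. During the first hour its signal intensity was lowest, median and highest at 3475, 3954 and 4218 in control animals and at 5472, 5828 and 6842 in corticosterone-treated animals. During the fifth hour the values were 3393, 3697 and 4083 in control and 4558, 5453 and 5719 in corticosterone-treated animals. Every treated animal was thus above every control animal at both hours. During the ninth hour the values were 3021, 3547 and 4212 in control and 4150, 4701 and 5109 in corticosterone-treated animals, and the groups overlapped. Mean intensity was 3900 ± 257 in control and 5953 ± 458 in corticosterone-treated mice (SD, n = 8) during the first hour, and 3603 ± 399 and 4639 ± 276 (SD, n = 8) during the ninth. On the log2 scale Spink8 differed by 0.61, 0.50 and 0.37 at the 3 hours, each with an SE of 0.05, and the adjusted p was 2.96e-13, 1.59e-10 and 5.2e-07. On every array of every hour, 8 of 8 each time, the treated animal had the higher value, with log ratios of 0.46 to 0.78, 0.27 to 0.70 and 0.17 to 0.58. Within single slides the log2 fold change was 0.55 to 0.66, 0.40 to 0.60 and 0.32 to 0.41 at the 3 hours. The probe passed the test in 18 of 18 alternative analyses at each hour.

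**Figure D1:**
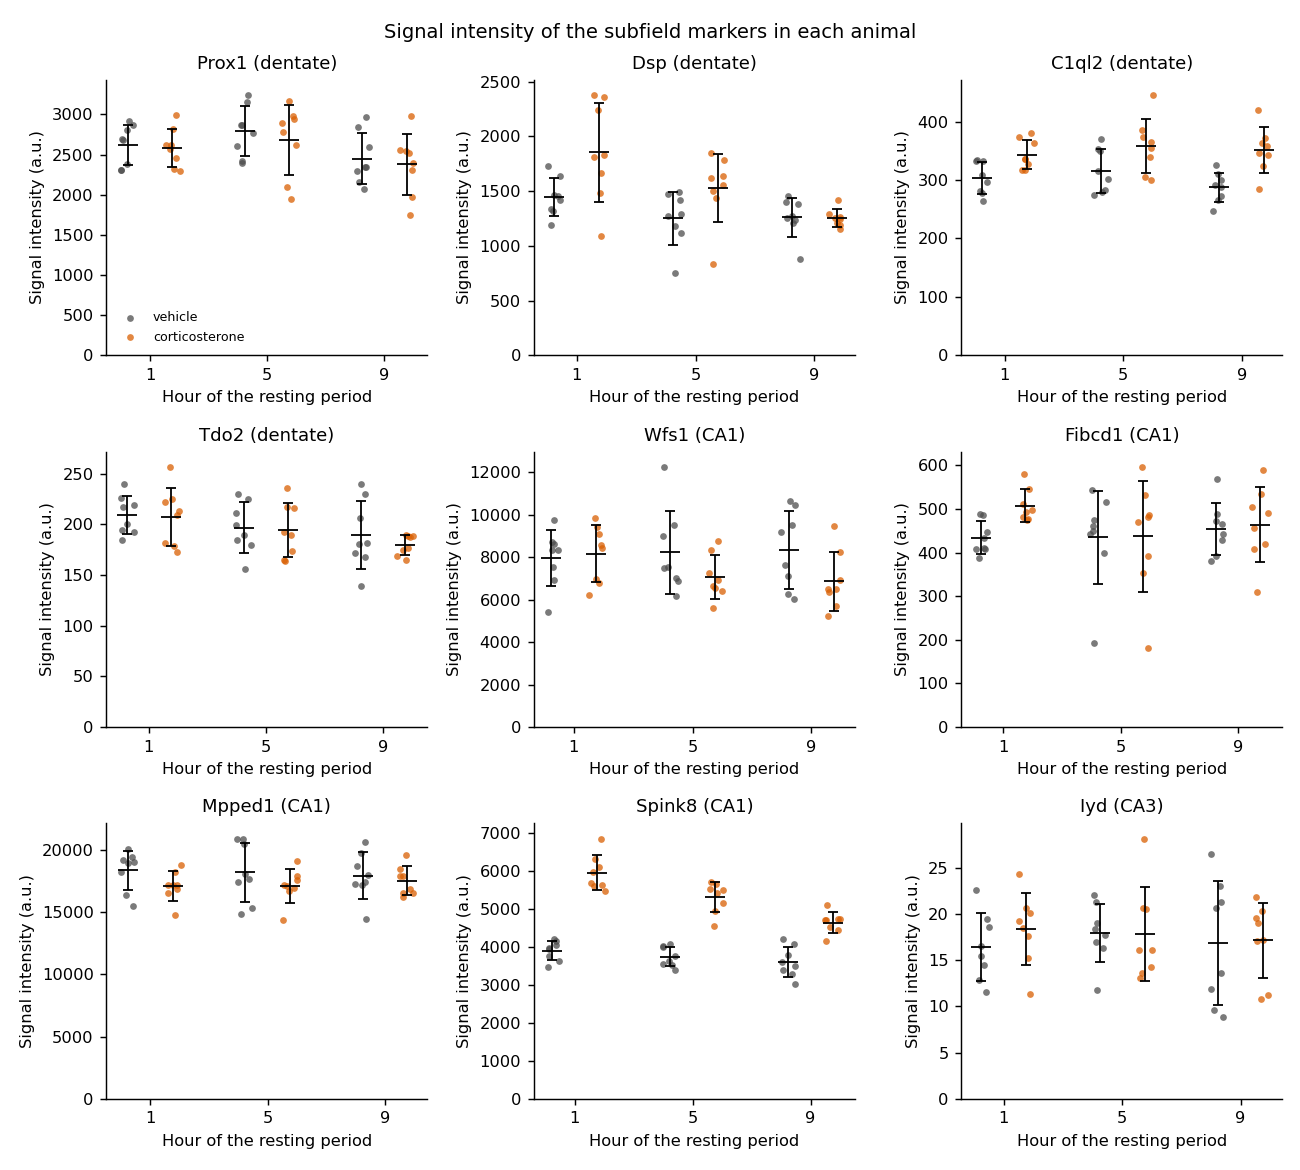
Normalised signal intensity (arbitrary units, y, linear from 0) of the brightest probe of each of the 9 subfield markers at each of the 3 hours (x), with 1 point for each animal, control (grey) and corticosterone-treated (orange), and black bars for the mean ± SD of each group (n = 8). The Spink8 groups do not overlap during the first and the fifth hour, the lowest Dsp and Fibcd1 values of the fifth hour come from 1 array, and Iyd stays between 8.85 and 28.1.

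The desmosomal gene Dsp varied more among treated than among control animals in the first hour (SD 453 against 176, n = 8). During the first hour its intensity was lowest, median and highest at 1187, 1436 and 1729 in control animals and at 1093, 1821 and 2376 in corticosterone-treated animals. During the fifth hour it was 749, 1282 and 1495 in control and 831, 1587 and 1851 in corticosterone-treated animals. During the ninth hour it was 876, 1268 and 1458 in control and 1151, 1252 and 1423 in corticosterone-treated animals. The groups overlapped at every hour, and the treated medians stood above the control medians during the first and the fifth hour but not during the ninth. On the log2 scale Dsp differed by 0.33, 0.28 and 0.00 at the 3 hours, each with an SE of 0.11, and the adjusted p was 0.0289, 0.0653 and 0.994. The treated animal had the higher value on 7, 7 and 3 of 8 arrays. The first-hour result did not hold in every subset of arrays: its adjusted p was 0.159 without slide 1, 0.134 without slide 2 and 0.0607 without array 4 of that hour on slide 2, while the log2 fold change stayed between 0.30 and 0.36 in the 18 alternative analyses with a test. Within slides it was 0.41, 0.32 and 0.29. The fifth-hour result lay near the threshold, with a log2 fold change of 0.26 to 0.30 and an adjusted p of 0.0229 to 0.178 over the alternatives, 7 of 18 of which passed. Among these was the analysis without array 7 on slide 3, where both animals had the lowest Dsp value of their group (0.30, adjusted p = 0.0336). During the ninth hour the within-slide values were −0.14, 0.35 and −0.06, and without array 5 of that hour on slide 2 the log2 fold change was −0.10 (adjusted p = 0.638).

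The synaptic gene C1ql2 passed the test in the ninth hour alone. During the first hour its intensity was lowest, median and highest at 264, 302 and 334 in control animals and at 317, 336 and 380.0 in corticosterone-treated animals. During the fifth hour it was 274, 309 and 369.7 in control and 301, 360.3 and 445 in corticosterone-treated animals, and during the ninth hour 246, 289 and 326 in control and 285, 353 and 420.2 in corticosterone-treated animals. The ranges overlapped at each hour, with the treated median above the control median each time. The log2 fold change was 0.18, 0.18 and 0.29 (SE 0.07 each), with adjusted p = 0.0541, 0.0504 and 0.00268. The values of the first and the fifth hour thus lay just outside the threshold, and they passed it in 5 and 6 of 18 alternative analyses. The ninth-hour result held in 17 of 18 and was lost without slide 2, where the log2 fold change was 0.25 (adjusted p = 0.0551). Within slides it was 0.23, 0.40 and 0.30. The treated animal had the higher value on 6, 5 and 7 of 8 arrays.

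Prox1 and Tdo2, the remaining dentate genes, did not pass the test. Prox1 was measured by 2 probes (A_55_P2733097 and A_66_P101490), whose log2 fold changes were −0.02, −0.07 and −0.05 and −0.05, −0.12 and −0.04 at the 3 hours. For A_55_P2733097 the 95% confidence intervals reached at most from −0.23 to 0.14, and the treated animal had the higher value on 3, 4 and 3 of 8 arrays. For A_66_P101490 the fifth-hour interval lay below 0, from −0.24 to −0.01 (unadjusted p = 0.0251, adjusted p = 0.101), and the treated animal had the higher value on 4, 1 and 1 of 8 arrays. It passed the test in 1 alternative, during the fifth hour without slide 2 (−0.19, adjusted p = 0.0289). The 2 probes target the same accession, and over 48 animals, with group means removed, their correlation was r = 0.367 (Spearman's rho = 0.396, r = 0.415 without the 2 animals farthest from the median). For Tdo2, with intensities of 140 to 257 across all animals, the log2 fold change was −0.02, −0.02 and −0.06 (SE 0.08), and the intervals reached from −0.23 to 0.15. The treated animal had the higher Tdo2 value on 3, 4 and 5 of 8 arrays.

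**Figure D2:**
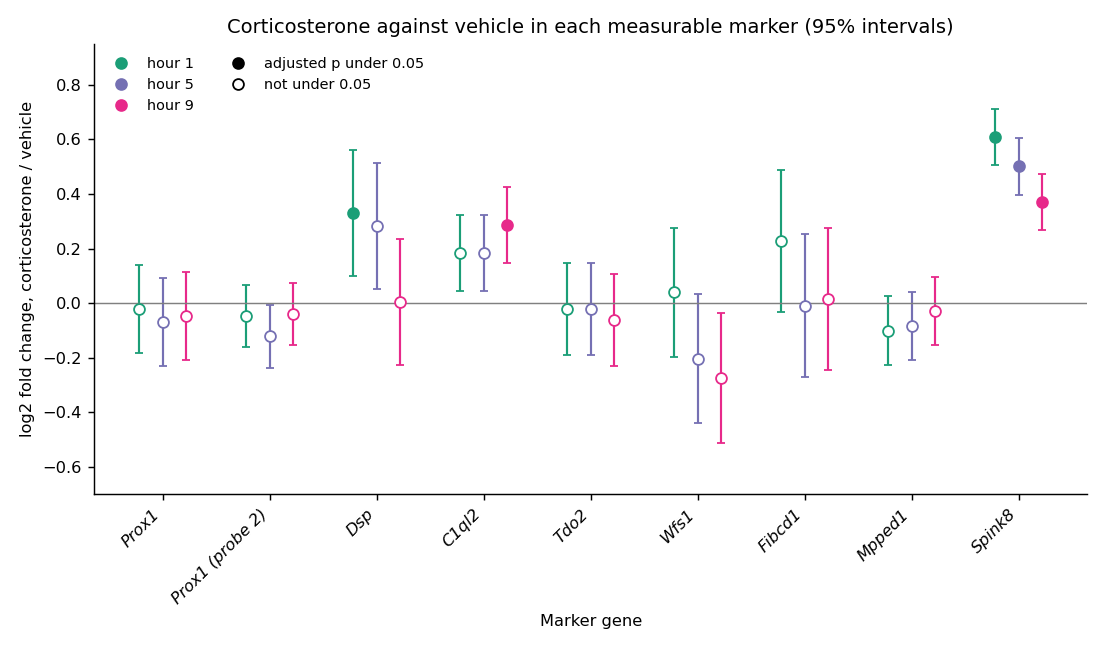
Log2 fold change of corticosterone-treated against control animals (y) for the 9 measurable subfield marker probes (x) in the first, the fifth and the ninth hour (colours), with points for the estimates, filled where the adjusted p was under 0.05, and bars for the 95% confidence intervals of the limma fit. Spink8 lies at 0.61, 0.50 and 0.37, Dsp falls back to 0.00 by the ninth hour, and Wfs1 lies at 0.04, −0.20 and −0.28.

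Wfs1, Fibcd1 and Mpped1, the other CA1 genes, did not pass the test. Wfs1, bright and variable, had intensities with lowest, median and highest values of 5409, 8331 and 9759 in control and 6223, 8519 and 9831 in corticosterone-treated animals at the first hour, and of 6016, 8416 and 10648 in control and 5224, 6506 and 9469 in corticosterone-treated animals during the ninth. The groups overlapped at every hour. The log2 fold change was 0.04, −0.20 and −0.28 (SE 0.12), with adjusted p = 0.857, 0.219 and 0.0962, and the ninth-hour interval reached from −0.51 to −0.04. Fibcd1 had lowest, median and highest values of 387, 422 and 489 in control and 473, 496 and 579.6 in corticosterone-treated animals at the first hour, with the treated animal higher on 8 of 8 arrays by a log ratio of 0.06 to 0.41. During the fifth hour the values were 192, 455 and 543 in control and 182, 476 and 596 in corticosterone-treated animals, and both lowest values came from array 7 on slide 3. The log2 fold change of Fibcd1 in the first hour was 0.23 ± 0.13 (SE, adjusted p = 0.195). The spread is shared by all 6 groups in this fit, and the Fibcd1 spread was far larger during the fifth hour (SD 108 in control and 128 in treated mice) than during the first (SD 37.7 and 37.4). The ninth hour also had a larger spread than the first (SD 59.4 in control and 85.8 in treated mice). When each hour was fitted alone, the first-hour adjusted p of Fibcd1 was 0.00366, the lowest of the alternatives. Over all 18 alternative analyses it ranged up to 0.619, and 2 of the 18 passed. Without array 7 on slide 3 the fifth-hour SD was 47.9 in control and 81.3 in treated mice (n = 7), and in the fit of all hours the first-hour adjusted p was 0.0529. During the fifth and the ninth hour the log2 fold change was −0.01 and 0.02, and without that array it was 0.00 during the fifth. Mpped1 ranged from 14396 to 20890 across all animals and differed by −0.10, −0.08 and −0.03 (log2, SE 0.06), with adjusted p = 0.243, 0.342 and 0.789. The 4 CA1 genes thus included one that rose at every hour and none that fell past the threshold.

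**Figure D3:**
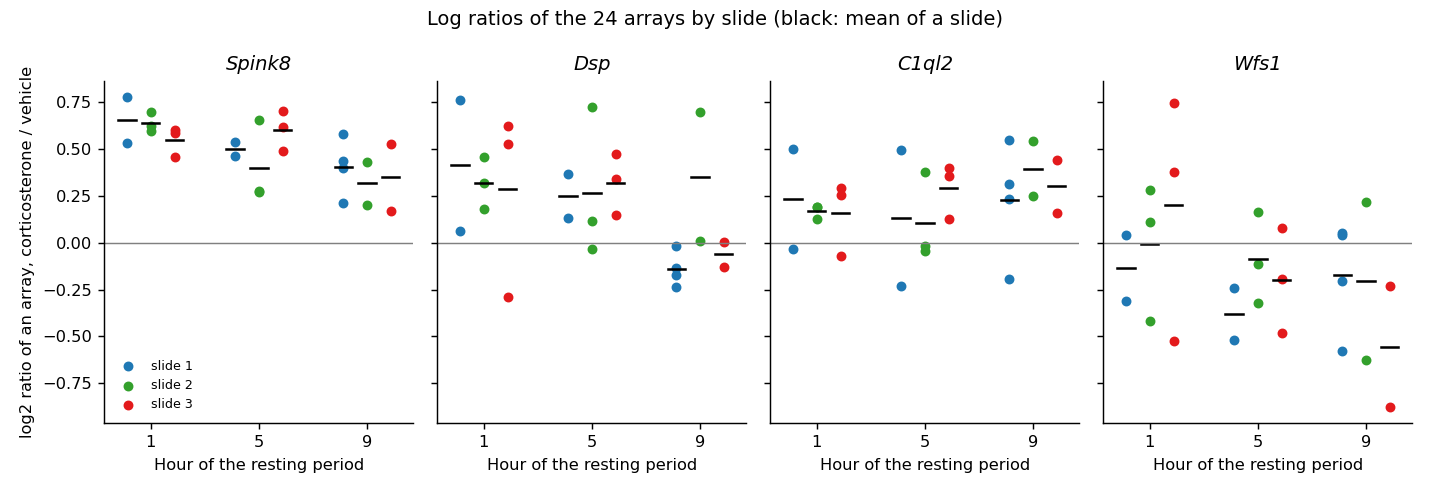
Log2 ratio of the corticosterone-treated to the control animal on each array (y) for Spink8, Dsp, C1ql2 and Wfs1 by hour (x), with 1 point for each of the 24 arrays, the colour marking the slide and black lines for the mean of a slide. All 24 Spink8 ratios are above 0, whereas Wfs1 ratios lie on both sides of 0 at every hour.

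The second question was whether the difference between the groups itself changed over the resting period. None of the 10 probes passed the test for a shift in the effect between the first and the fifth, the first and the ninth or the fifth and the ninth hour, at unadjusted p under 0.05 in 0, 2 and 0 probes, and the paired limma test on log ratios also called 0. Over the whole array, 0.0389%, 0.829% and 0.0813% of probes passed these tests. The Spink8 effect was smaller during the ninth hour than during the first by a log2 difference of −0.24 (95% confidence interval −0.39 to −0.09, unadjusted p = 0.000934, adjusted p = 0.0903). It passed the threshold when dim probes were left out before adjustment, with a lowest adjusted p of 0.0353, and its adjusted p ranged up to 0.589 over the alternatives. For Dsp the difference between these hours was −0.33 (−0.65 to 0.00, adjusted p = 0.638), and for Wfs1 −0.32 (−0.65 to 0.02, adjusted p = 0.721). The C1ql2 effect differed by 0.11 (−0.09 to 0.30, adjusted p = 0.962). The loss of the Dsp difference by the ninth hour was therefore not shown by the test of the difference itself.

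Comparison between hours within a treatment, where both groups carry the same dye, gave the third view. In control animals, 0 of the 10 probes displayed significant differences between any of the hours, with unadjusted p under 0.05 for 1 probe in each comparison and 0 called under every alternative run. The background here was 0.0053% of all probes for the fifth against the first hour, 0.516% for the ninth against the first and 0.0318% for the ninth against the fifth. In corticosterone-treated animals, Spink8 and Dsp declined from the first to the ninth hour. Spink8 was lower by 22.0% during the ninth hour (log2 difference −0.36 ± 0.06, adjusted p = 2.42e-05), and its highest treated value of that hour, 5109, was below the lowest of the first hour, 5472. Dsp was lower by 30.6% (−0.53 ± 0.13, adjusted p = 0.00903), with overlapping groups. Its decline was −0.54, −0.53 and −0.51 within the 3 slides, although the adjusted p was 0.258 without slide 1 and 0.102 without slide 2. Over the array 3.93% of probes passed this test, against 0.542% for the fifth against the first hour and 0.668% for the ninth against the fifth, in which 0 of the 10 probes passed (unadjusted p under 0.05 in 2 and 1). In control animals the same comparison of the ninth with the first hour gave −0.12 (adjusted p = 0.473) for Spink8 and −0.20 (adjusted p = 0.65) for Dsp, with 0.01, −0.57 and −0.16 within the slides for Dsp. The other measurable members gave log2 differences of −0.26 to 0.12 in corticosterone-treated mice over these hours. The 2 Prox1 probes pointed in opposite directions there, at −0.13 and 0.12, and neither passed the test.

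Further genes known for the same subfields were examined beside the members. Each was read from its brightest probe, and results from any other probes of these genes are not given. For comparison, 17.5%, 18.2% and 13.9% of all probes passed at the 3 hours, and no list was tested against that share. Of 8 further dentate granule cell genes, 1 passed the test at each hour, and all 3 results were lower values. Stxbp6, a syntaxin-binding protein, stood at −0.20 and −0.16 in the first and the fifth hour (log2, adjusted p = 0.0022 and 0.0139). C1ql3, a relative of C1ql2, had −0.19 during the ninth (adjusted p = 0.032), opposite in sign to C1ql2. Of 6 further CA1 genes, 2, 3 and 2 passed. Man1a, a Golgi mannosidase, was lower at all hours (−0.21, −0.31 and −0.27), and the transcription factor gene Pou3f1 was lower during the fifth (−0.18). Gpr161, an orphan receptor of the primary cilium, was higher during the first and the fifth hour (0.30 and 0.18) and lower during the ninth (−0.21), and its effect changed between the first and the ninth hour by −0.51 (adjusted p = 5.28e-06). Spink8 and Gpr161 thus both had their highest corticosterone effect during the first hour, but only Gpr161 passed the test of the difference and turned its sign. Of 7 further CA3 genes, 1 passed at each hour: the kainate receptor gene Grik4 was lower during the first (−0.13), and the adhesion gene Nectin3 was higher during the fifth and the ninth (0.22 and 0.32). Of 6 genes of CA2, the small field between CA3 and CA1, 3, 2 and 2 passed, all of them higher, with Cacng5 at 0.55 and 0.38 and Amigo2 at 0.44 and 0.45 during the first and the fifth hour. The list medians were 0.07, 0.06 and −0.10 for the further dentate genes, −0.01, −0.10 and −0.07 for the further CA1 genes, −0.09, −0.03 and −0.01 for the further CA3 genes and 0.11, 0.07 and 0.12 for CA2, against 0.00 over all probes.

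**Figure D4:**
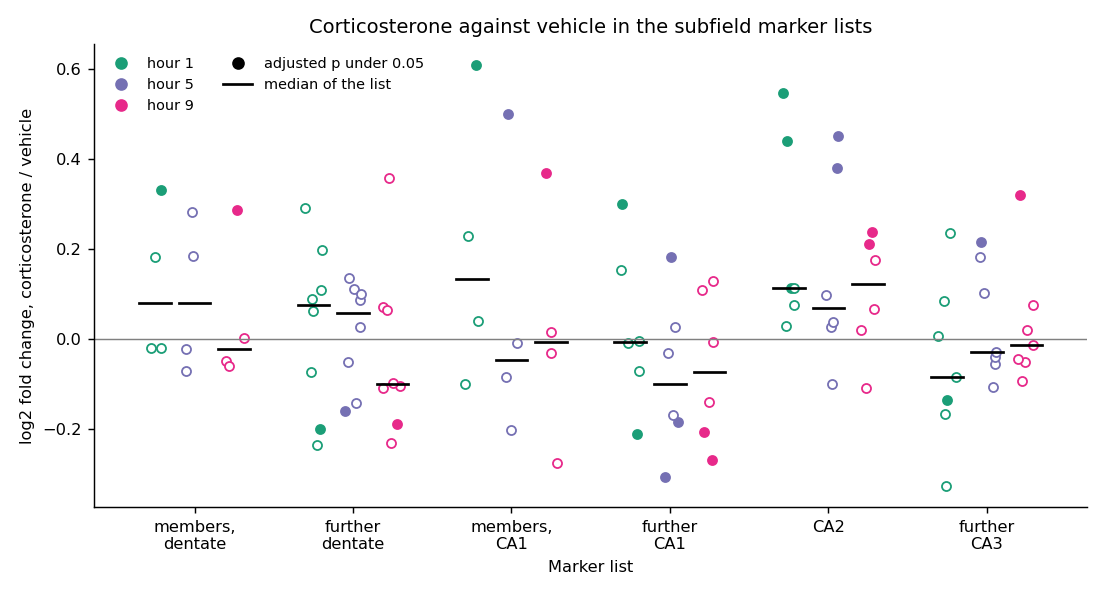
Log2 fold change of corticosterone-treated against control animals (y) for the dentate and CA1 marker genes and for further genes of the dentate gyrus, CA1, CA2 and CA3 (x), with 1 point for each gene, coloured by hour and filled where the adjusted p was under 0.05, and black lines for the median of a list. Every gene is shown by its brightest probe. Within every list genes lie on both sides of 0 in at least 1 hour, and Spink8 is the highest of the CA1 genes at each hour.

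Markers of other cells and of neighbouring tissue were examined as well, since the dissection takes in the whole hippocampus. Here too a gene stands for its brightest probe alone. The share of all probes called was 17.5%, 18.2% and 13.9% at the 3 hours, and these lists were not tested against it. Markers of striatum (4 genes), choroid plexus (5 genes) and hilar mossy cells (3 genes) gave 0 calls at any hour, with Kcne2 of the choroid plexus above background in 0 of 48 channels. Of 4 thalamic genes, Tcf7l2 was higher during the first hour, and of 3 neocortical genes, Rspo1 was lower during the first and the fifth. Of 4 genes of the ventral hippocampus, Grp was lower during the first hour (−0.42). Of 5 interneuron genes, 0, 3 and 1 passed, all higher. Among markers of astrocytes, microglia and vessels, those that passed were 2 of 4 astrocyte genes at each hour, in opposite directions (Aldh1l1 higher, Aqp4 lower), 3, 2 and 1 of 4 microglial genes, all lower, and 3, 2 and 2 of 3 endothelial genes in both directions. The summed level of the microglial list was 6973 to 8255 in control and 5285 to 7053 in corticosterone-treated animals at the first hour, and that of the endothelial list 8249 to 10444 and 5667 to 7461. At the fifth hour microglial sums were 7419 to 8813 and 6391 to 7837, and endothelial sums 8340 to 10802 and 6600 to 8181. At the ninth hour microglial sums were 7698 to 8947 and 7321 to 8481, and endothelial sums 7415 to 9228 and 7014 to 8020. These sums weigh the brightest gene of a list most. The median log2 fold change was −0.32, −0.23 and −0.07 for the microglial list at the 3 hours. For the endothelial list it was −0.36, −0.11 and 0.15, with 1 gene called higher and 1 lower at the ninth hour. Microglial sums overlapped between the groups at every hour, and endothelial sums at the ninth hour alone. The part of these marker lists in the Spink8, Dsp and C1ql2 results was not tested.

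Finally, the genes were compared across animals. After the mean of each group was removed, log2 intensities of the brightest probe of each gene were correlated over the 48 animals, which share arrays in pairs. The 6 pairs within the dentate genes had r of 0.09 to 0.437 (median 0.286), the 6 pairs within the CA1 genes −0.298 to 0.15 (median 0.013) and the 16 pairs between dentate and CA1 genes −0.319 to 0.617 (median 0.0545). The CA1 markers therefore did not vary together from animal to animal. C1ql2 and Fibcd1, a dentate and a CA1 gene, had the highest r, 0.617 (rho = 0.62, r = 0.567 without the 2 farthest animals, r = 0.67 without array 7 of the fifth hour), and this was as high in the means of the arrays (0.682) as in their log ratios (0.706). Dsp and Fibcd1 had r = 0.553 (rho = 0.216, r = 0.433 without the 2 farthest animals), which was 0.0532 without array 7 of the fifth hour, so that it rests on the 2 animals of that array. Their array means gave 0.731 and their log ratios −0.0689, both with that array included. Prox1 and Dsp had r = 0.437 (rho = 0.362, r = 0.543 without the 2 farthest animals, r = 0.302 without array 7 of the fifth hour). Dsp and Tdo2 had r = 0.436 (rho = 0.454, r = 0.381 without the 2 farthest animals, r = 0.506 without that array). Without that array the medians were 0.197 within the dentate genes, −0.0163 within the CA1 genes and 0.0247 between them.

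**Figure D5:**
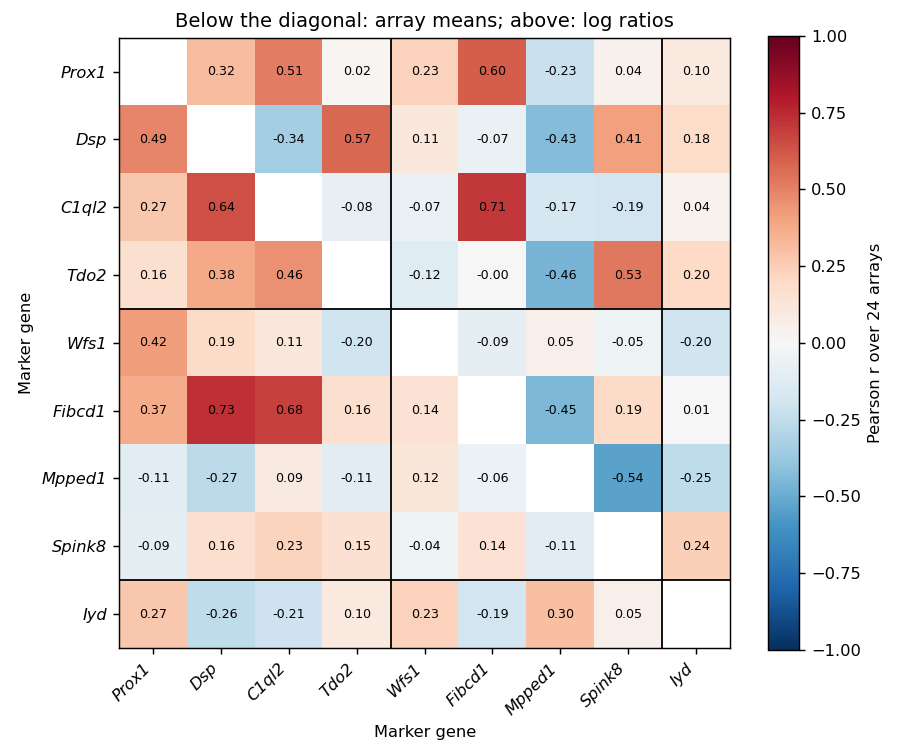
Pearson's r between the subfield marker genes over 24 arrays with group means removed, below the diagonal for the mean of both animals of an array and above it for the log ratio of the array, on a colour scale from −1 to 1. C1ql2 and Fibcd1 are alike in both (0.682 and 0.706), whereas Dsp and Fibcd1 are alike in the means alone (0.731 and −0.0689), with array 7 of the fifth hour included.

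The mean of the 4 dentate genes and the mean of the 4 CA1 genes had r = 0.478 with each other, and 0.23 over the 46 animals without array 7 of the fifth hour. Among 32035 probes of mean intensity 50 or more, the genes most like the dentate mean over the 48 animals were Arel1 (r = 0.797), Limd2 (0.797), Cacna2d1 (0.772), Ube2l3 (0.766) and Nfyc (0.761). The genes most like the CA1 mean were Jag2 (0.769), Fam53a (0.761), Oaz1 (0.726), Taf6 (0.72) and Scap (0.719). These orders rest in part on array 7 of the fifth hour. Without it r was 0.629 to 0.715 for the 5 genes like the dentate mean and 0.513 to 0.684 for the 5 genes like the CA1 mean, and among them Limd2 and Jag2 alone were still among the 5 highest. The 8 further dentate genes had r of −0.0577 (C1ql3) to 0.688 (Dock10) with the dentate mean, with a median of 0.356, and 0.0383 to 0.616 without that array, with a median of 0.424. The order within this list changed with the array, as Stxbp6 went from 0.249 to 0.616 and Trpc6 from 0.597 to 0.289. The medians of the lists of other regions and cell types lay between −0.358 (ventral hippocampus) and 0.0266 (CA2), and without the array between −0.377 (ventral hippocampus) and 0.18 (endothelium). Ntf3, placed here in the CA2 list, was at 0.738 above all 8 further dentate genes, but not without the array (0.588 against 0.616 for Stxbp6). In which subfields Ntf3 was expressed cannot be told from RNA of the whole hippocampus. With the CA1 mean the further dentate genes had −0.169 to 0.638, and −0.304 to 0.414 without the array. The 6 further CA1 genes had a median r of 0.0788 with the CA1 mean and reached at most 0.428 (Man1a), and without that array the median was 0.215 and the highest 0.373 (Ccn3). The genes most like Iyd, Rplp0 (0.595), Med1 (0.587), Rap1a (0.585), Neu1 (0.581) and Zfp189 (0.572), were matched to a probe that was not well above background, and had 0.548 to 0.612 without that array. These correlations describe the 48 animals and carry no test.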

How the data were processed

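Whole-hippocampus RNA was hybridised to Agilent two-colour mouse 8x60K arrays. Cy3 and Cy5 median signal and local background intensity per spot, without normalisation, were read from the deposited scanner files. The processed signals of the Agilent software were used only as an alternative. The authors selected samples of high RNA integrity and extracted the spots with Agilent software, a step that by their methods included Lowess normalisation. The series table deposited by the authors holds log2 ratios of Cy5 to Cy3, closest to loess values with an offset of 50 (median absolute difference 0.001185), and was used as an alternative. Per-sample columns of other series numbered 0.

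Following the study's methods, limma 3.58.1 (R 4.3.3, statmod 1.5.0) applied normexp background correction, loess within and quantile normalisation between arrays. Control spots were left out, outlier spots given weight 0, and copies of a probe averaged. For 77 probes missing on 1 or more arrays, none of them a member, the mean of the hour was used. The 6 groups were fitted in 1 separate channel model (intraspot correlation 0.286). Adjusted p-values (Benjamini-Hochberg over 56605 probes in each of 12 comparisons) came from data with an offset of 50, and log2 fold changes and SE from data with an offset of 0. Significant means an adjusted p under 0.05. Intensities are the normalised values at an offset of 0. The procedure was tested on simulated data. The number of arrays limits the precision. Slides were taken from the array barcodes, and each of the 3 slides holds all hours, though unevenly. Slide 1 holds 2, 2 and 4 arrays of the first, the fifth and the ninth hour, and slides 2 and 3 hold 3, 3 and 2 each. Comparisons between hours are therefore not balanced over slides.

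Every probe of a member gene is named, with the brightest probe leading. Of the other lists, genes past the threshold are counted and at most 4 named per list. A gene of these lists is read from its brightest probe alone. The oligodendrocyte list is not reported here, since it could be given only in part. For the likeness of patterns, the 5 genes of highest r are named. The members and lists were chosen with earlier results of these data known. Alternatives covered the offset, background correction, normalisation, Agilent's processed signals, dim-probe filters, paired and single-hour fits, slide as a block, leaving out slides or single arrays, outlier spots and the series table. Sequences came from RefSeq (GRCm38.p6). Figures were drawn with matplotlib 3.10.9.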

Additional observations from a re-analysis of the deposited data

Results flagged for a closer look

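In 6 of the 60 groups of 8 animals examined, the highest or lowest animal lay apart from the others, with a gap to its nearest neighbour, as a share of the range of the group, above Dixon's 95% critical value. Chance gives about 1 in 20 such groups. Of these, 4 concern the 2 animals of array 7 of the fifth hour on slide 3. There the control animal had a Dsp intensity of 749, against 1120 for the next (share 0.582), and a Fibcd1 intensity of 192, against 399 (0.704). The corticosterone-treated animal of the same array had 831 for Dsp, against 1440 (0.687), and 182 for Fibcd1, against 354 (0.562). Spink8, C1ql2 and Wfs1 did not lie apart in the 2 animals. The control animal nevertheless had the lowest Spink8 value of its group, 3393, against 3531 to 4083 in the others, and the treated animal had 5522. Without that array the Spink8 log2 fold change of the fifth hour was 0.47 (limma, adjusted p = 1.17e-08). That array had 506 outlier spots and 61.0% of spots well above background in Cy5, the most and the lowest of all arrays. Further flags were a control animal with 876 for Dsp during the ninth hour, against 1204 (0.625, array 5 on slide 2), and a control animal with 2007 for the Prox1 probe A_66_P101490 during the first hour, against 1668 (0.632, array 4 on slide 2).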

How the results depend on the processing

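The labels carry no replicate numbers, and the 2 animals of an array were paired in the log-ratio test. The 27 results of the measurable probes were recomputed under 19 alternatives, of which 1, the offset of 50 for fold changes, leaves the adjusted p as it is and is not among the 18 of the report. Of these 513 values, 0 called values turned their sign, 4 calls were lost and 21 gained. Another 26 values, not called either way, had the other sign. The count of 2 called probes during the first hour became 4 with a fit for each hour alone (C1ql2 and Fibcd1 added), 3 with Aquantile, Agilent's processed signals or either dim-probe filter (C1ql2 added) and with the series table (Fibcd1 added), and 1 to 2 when a slide or array 4 of slide 2 was left out. The count of 1 during the fifth hour became 2 with median centring (C1ql2 added), the paired test or the series table (Dsp added), 3 with Aquantile, Agilent's processed signals or either dim-probe filter (C1ql2 and Dsp added), and 1 to 2 when a slide or array 7 of slide 3 was left out (C1ql2 joined Spink8 without slide 1, Prox1 without slide 2 and Dsp without the array). The count of 2 during the ninth hour became 1 to 2 without single slides. The effect difference between the ninth and first hour went from 0 to 1 probe with either dim-probe filter, and the count of 2 in corticosterone-treated mice between these hours became 1 to 2 without single slides. The cause was not tested. The share of all probes called also moved, from 7.98% without slide 2 to 24.3% with probes of mean intensity 50 or more in the first hour, from 7.28% without slide 3 to 23.7% in the fifth and from 3.19% without slide 1 to 16.4% in the ninth, the highest each time with that filter. Slide as a block changed no call of a member. Iyd is limited by its signal, which was not well above background.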
